A study of Mus musculus with 18 samples.

Results

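The repressive histone mark H3K27me3 was examined at 35 genes of the BMP and TGF-beta signalling pathway in mouse medial ganglionic eminence (MGE), the ventral forebrain zone that produces many cortical interneurons. The 35 genes, of 20661 autosomal protein-coding genes in all, were chosen by name from the pathway, as 17 ligands, 7 secreted antagonists or regulators, 9 receptors and 2 inhibitory Smads. They were chosen with earlier results of these data known. The mark was mapped by CUT&Tag, in which an antibody directs a transposase to cut DNA near the modified histone. Each of 4 groups had 3 libraries, labelled as biological replicates: wild type (WT) and Ezh2 knockout (KO), each at E12.5 and at E15.5. In the knockout, Ezh2, which encodes the main H3K27 methyltransferase of this stage, was deleted with the Nkx2.1-Cre driver in embryos that also carried the Ai9 reporter. The alleles of the WT embryos beyond the genotype word are not given in the sources used here. The whole MGE was taken at E12.5, while at E15.5 the dissection was limited to tissue showing the reporter, and MGEs of embryos with 1 genotype could be combined. Of 18 samples in the series, the 6 from heterozygous embryos are not analysed here. Stage and dissection therefore changed together and cannot be told apart, and the tissue at E12.5 could hold cells in which Cre had not acted. In bulk tissue, fewer cells carrying the mark and less mark per cell cannot be told apart. The lists hold no measure of the deleted exons, so the genotype labels were not checked.

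BMP and TGF-beta ligands are secreted dimers that bind paired type I and type II receptor kinases, which phosphorylate receptor Smads. Secreted antagonists such as Noggin, Chordin and Gremlin hold BMPs away from receptors, Follistatin binds activins, the Lefty proteins block Nodal, and Smad6 and Smad7 inhibit the pathway inside the cell. In the developing forebrain BMPs come largely from the dorsal midline and pattern the telencephalon. H3K27me3 is laid down by Polycomb repressive complex 2, of which EZH2 is a catalytic subunit, and typically covers CpG-rich regions of developmental genes that are silent in a cell.

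Each library was a list of called intervals with a read count per interval. A gene's window was its body with 2.5 kb on either side, and its count was the sum over all intervals that touched the window. Depth, recovered from the lists as the mean count per 200 bp of genome, ran from 0.117 to 0.698 in E12.5 WT, from 0.212 to 0.272 in E12.5 KO, from 0.0751 to 0.150 in E15.5 WT and from 0.179 to 0.346 in E15.5 KO. The counts in intervals summed to between 573838 and 6846250 per library. A normalised count is a count multiplied by the average depth of the 12 lists over the library's own depth. With counts scaled by depth, 91.6% of 3139 genes were lower in KO than in WT at E12.5. In WT, 85.9% of 2623 genes were lower at E15.5 than at E12.5, and in KO 53.9% of 3002. These shares bear on every order of libraries given below. How many of all genes had groups that did not overlap was not counted. Intervals lay over 11 to 14 of 14 MGE genes, 7 to 8 of 8 dorsal pallium genes, 6 of 11 non-neural genes and 0 to 2 of 12 housekeeping genes per library. A mark list shows no expression, so these counts do not check the tissue.

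The promoters of 5 genes are printed to show the range of marking in the pathway: Gdf7 and Bmp4, covered in every library; Tgfbr2, whose counts changed; and Acvr1 and Bmp5, which had no interval anywhere. Each line is the 250 bases before the start of the gene, 5′ to 3′ on the gene's strand, from RefSeq on GRCm38, with CpG dinucleotides in capitals. The gene starts were taken from the table's annotation, and 22 of the 35 genes had an entry.
Gdf7: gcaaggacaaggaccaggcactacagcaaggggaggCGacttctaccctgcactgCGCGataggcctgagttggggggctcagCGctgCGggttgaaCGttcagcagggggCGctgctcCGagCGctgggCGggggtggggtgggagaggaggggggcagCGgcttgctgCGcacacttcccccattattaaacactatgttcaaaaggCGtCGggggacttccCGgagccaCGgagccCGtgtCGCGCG
Bmp4: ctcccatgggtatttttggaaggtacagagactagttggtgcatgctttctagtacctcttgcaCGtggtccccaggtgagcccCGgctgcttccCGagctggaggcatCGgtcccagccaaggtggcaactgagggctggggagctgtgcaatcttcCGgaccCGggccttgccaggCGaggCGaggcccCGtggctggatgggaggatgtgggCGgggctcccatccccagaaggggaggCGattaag
Tgfbr2: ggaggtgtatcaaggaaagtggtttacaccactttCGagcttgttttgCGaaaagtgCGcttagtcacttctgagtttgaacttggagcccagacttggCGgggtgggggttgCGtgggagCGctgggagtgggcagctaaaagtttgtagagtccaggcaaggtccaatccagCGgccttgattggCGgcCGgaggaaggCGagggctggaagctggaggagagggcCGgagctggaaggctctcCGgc
Acvr1: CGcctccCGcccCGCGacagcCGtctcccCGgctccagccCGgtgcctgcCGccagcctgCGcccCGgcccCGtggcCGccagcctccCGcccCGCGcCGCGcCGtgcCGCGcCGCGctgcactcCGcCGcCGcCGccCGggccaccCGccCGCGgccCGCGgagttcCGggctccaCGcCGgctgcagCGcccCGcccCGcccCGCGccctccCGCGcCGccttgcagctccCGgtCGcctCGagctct
Bmp5: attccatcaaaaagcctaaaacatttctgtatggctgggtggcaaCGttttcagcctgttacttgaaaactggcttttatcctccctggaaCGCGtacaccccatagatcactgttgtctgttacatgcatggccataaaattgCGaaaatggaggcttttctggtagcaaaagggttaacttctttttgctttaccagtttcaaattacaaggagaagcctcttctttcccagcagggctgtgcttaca
In GRCm38 coordinates these windows lie on the minus strand at chr12:8301955-8302204 for Gdf7, chr14:46390670-46390919 for Bmp4, chr9:116175364-116175613 for Tgfbr2 and chr2:58566829-58567078 for Acvr1, and on the plus strand at chr9:75775115-75775364 for Bmp5. The motif CG reads the same on both strands, and it was found at least once in 92.1% of 32851 promoter windows of this length, with a median of 6. Gdf7 held 20 CpGs, Bmp4 held 11 and Tgfbr2 held 12. Acvr1 held 46 and Bmp5 held 4, so of the 2 unmarked promoters printed 1 lay far above the median and 1 below it. An interval lay over the Tgfbr2 promoter in 11 libraries and was missing there in E15.5 WT library 2. Among other promoters, Bmpr2, with 22 CpGs, had no interval over the promoter, whereas Nodal, with 3, was covered in all 12 lists. Nodal was an exception: the other promoters covered in all 12 lists held 11 to 35 CpGs. The promoter entries with no interval held 1 to 46, most of them 5 or fewer, and a gene can have several entries. A link between CpG count and the mark was not tested. A CpG count is a description of these letters only.

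Most of these 35 genes, which were chosen with earlier results known, carried the mark. Of the 35 genes, 20 had an interval in all 12 lists, against 12.1% of all genes (2491), and 3 genes, Bmp5, Bmpr2 and Acvr1, had none in any list, against 61.2% of all genes. The other 12 had an interval in some lists. Per library, 21 to 30 of the 35 genes (60% to 85.7%) had an interval, against 15.9% to 31.5% of all genes. For 55 other autosomal pathway genes the share was lower, at 38.2% to 61.8%, so the 35 do not stand for the whole pathway. The fewest, 21, were in E15.5 WT library 1, which also had the lowest depth, and the most, 30, were in E12.5 WT library 2, which had the highest. An interval missing from a shallow list is thus not evidence that the mark was absent.

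**Figure D1:**
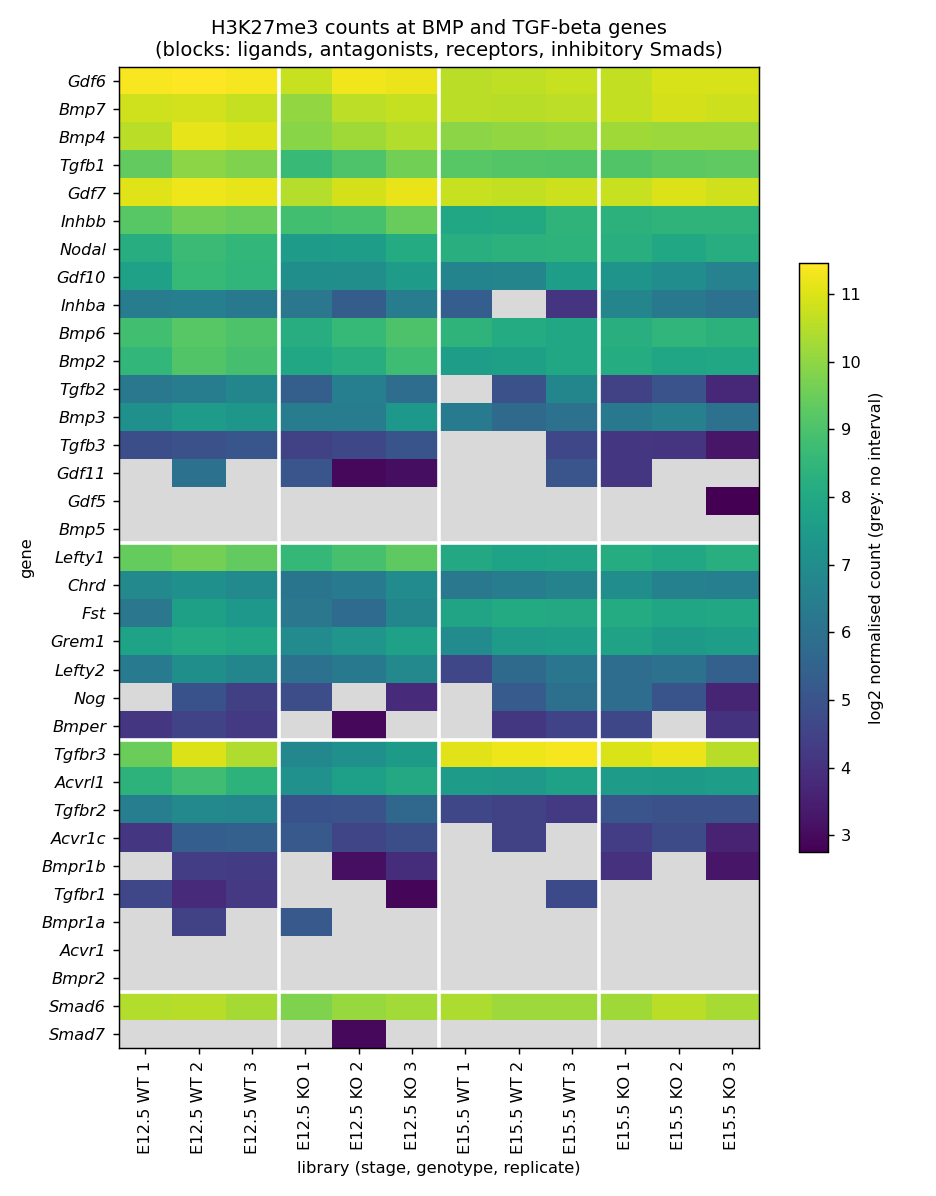
Normalised H3K27me3 counts (log2 colour scale) of the 35 genes (rows, in blocks of ligands, antagonists, receptors and inhibitory Smads) in the 12 libraries (columns), with grey where no interval was called. Gdf6, Gdf7, Bmp4, Bmp7 and Smad6 are high in every column, Tgfbr3 is low in the 3 E12.5 KO columns, and Bmp5, Acvr1 and Bmpr2 are grey throughout.

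Among the ligands, 11 of 17 were marked in every library, 5 in some and 1, Bmp5, in none. Gdf7, a roof plate BMP (chr12:8297918-8301954), had its whole 9037 bp window covered in all 12 libraries. Its normalised counts were 2098, 2432 and 2254 in E12.5 WT, 1433, 1932 and 2281 in E12.5 KO, 1702, 1607 and 1777 in E15.5 WT, and 1681, 2058 and 1826 in E15.5 KO. At both stages the WT and KO ranges overlapped. For a density, each interval's count was instead apportioned by its overlap with the window. On that measure Gdf7 had 121 ± 24.0 normalised counts per covered kb (SD over 12 libraries), more than 88.5% of the 2491 genes marked in every library. The whole-interval counts above also take in reads outside the window. In 12 lists an interval over Gdf7 also reached its neighbour Ldah, and in 2 it reached Hs1bp3, so counts there are not those of Gdf7 alone.

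Gdf6, a BMP-family ligand gene of skeletal and eye development (chr4:9844372-9862345), had 20096 bp covered on average. Its normalised counts were 2685, 2818 and 2624 in E12.5 WT, 1685, 2472 and 2369 in E12.5 KO, 1512, 1587 and 1713 in E15.5 WT, and 1615, 1959 and 1936 in E15.5 KO. At E12.5 all WT libraries lay above all KO libraries, while at E15.5 the ranges overlapped. Of all genes tested, 91.6% were lower in KO at E12.5 and 52.0% at E15.5. Bmp7 (chr2:172868012-172940321), a ligand of kidney, eye and forebrain development, had 1843, 1888 and 1671 in E12.5 WT, 1065, 1531 and 1645 in E12.5 KO, 1501, 1465 and 1527 in E15.5 WT, and 1602, 1895 and 1785 in E15.5 KO. KO libraries lay below the WT libraries at E12.5 and above them at E15.5, but neither difference passed (edgeR adjusted p = 0.356 and 0.453). The difference between the stages in KO against WT, 0.58 on the log2 scale, did not pass either (edgeR adjusted p = 0.171). It was near the median of 0.61 over all genes tested. Bmp4 (chr14:46383525-46390669), the dorsal midline morphogen, had 1516, 2231 and 2071 in E12.5 WT, 960, 1185 and 1414 in E12.5 KO, 996, 1049 and 1118 in E15.5 WT, and 1183, 1144 and 1132 in E15.5 KO. Its E12.5 WT libraries were above the other 9. Tgfb1 (chr7:25687002-25705077), the founding TGF-beta ligand, had 663, 987 and 887 in E12.5 WT, 389, 538 and 783 in E12.5 KO, 592, 557 and 551 in E15.5 WT, and 549, 619 and 646 in E15.5 KO. Its groups overlapped at both stages, and in all 12 lists an interval was shared with its neighbour B9d2.

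Inhbb, which encodes an activin beta subunit, had 585, 755 and 700 in E12.5 WT, 458, 482 and 690 in E12.5 KO, 249, 261 and 340 in E15.5 WT, and 329, 344 and 339.9 in E15.5 KO. Bmp6, a close relative of Bmp7, had 449.8, 586 and 524 in E12.5 WT, 289, 384 and 519 in E12.5 KO, 342, 277 and 253 in E15.5 WT, and 297, 361 and 327 in E15.5 KO. For Inhbb all 6 E12.5 libraries lay above all 6 E15.5 libraries, and for Bmp6 the 3 E12.5 WT and 3 E15.5 WT libraries did not overlap. Bmp2, a relative of Bmp4, had 370.0, 542 and 470 in E12.5 WT, 246, 291 and 434 in E12.5 KO, 201, 207 and 248 in E15.5 WT, and 282, 237 and 247 in E15.5 KO. Gdf10, also called Bmp3b, had 215, 388 and 358 in E12.5 WT, 137, 134 and 186 in E12.5 KO, 104, 106 and 199 in E15.5 WT, and 154, 131 and 97.0 in E15.5 KO. Bmp3, a BMP-family member that opposes other BMPs, had 140, 186 and 167 in E12.5 WT, 85.7, 87.8 and 169 in E12.5 KO, 83.0, 54.2 and 64.1 in E15.5 WT, and 77.1, 92.7 and 65.4 in E15.5 KO. In each of these 3 genes the E12.5 WT libraries lay above the E15.5 WT libraries, which is the direction of 85.9% of the 2623 genes tested. The ligand left of those marked in every list, Nodal, had a lowest normalised count of 186 and a highest of 417.

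The other 5 ligands were marked in part of the lists. Inhba, the other activin beta subunit gene, had 86.4, 91.2 and 76.8 in E12.5 WT, 73.5, 40.1 and 84.4 in E12.5 KO, 41.5 and 17.3 in E15.5 WT libraries 1 and 3, and 106, 77.1 and 63.9 in E15.5 KO. It lacked an interval in E15.5 WT library 2, and its E15.5 KO libraries lay above the WT libraries. Tgfb2, a ligand with roles in neural and heart development, had 75.3, 84.8 and 107 in E12.5 WT, 41.6, 91.6 and 58.8 in E12.5 KO, 30.1 and 107 in E15.5 WT libraries 2 and 3, and 21.8, 31.3 and 13.5 in E15.5 KO. In the KO all E15.5 libraries lay below all E12.5 libraries. Tgfb3, a ligand of palate development, had 28.8, 30.1 and 34.1 in E12.5 WT, 22.0, 24.8 and 32.1 in E12.5 KO, only 1 E15.5 WT value (24.3, in library 3), and 17.5, 16.9 and 9.78 in E15.5 KO. Gdf11, a relative of myostatin, had an interval in 6 lists, at 64.4 in E12.5 WT library 2, at 33.1, 7.63 and 8.55 in E12.5 KO, at 32.9 in E15.5 WT library 3 and at 17.5 in E15.5 KO library 1. In 3 of these lists the interval also touched Cd63. Gdf5, a joint-forming ligand gene, had 1 interval, with 9 reads, in E15.5 KO library 3.

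Of the 7 secreted antagonists, 5 were marked in every library. Lefty1, a Nodal inhibitor expressed at the embryonic midline, had 682, 803 and 664 in E12.5 WT, 374, 486 and 626 in E12.5 KO, 256, 225 and 227 in E15.5 WT, and 281, 250.5 and 300.1 in E15.5 KO. All 6 E12.5 libraries lay above all 6 E15.5 libraries. Of all genes tested, 85.9% were lower at E15.5 in WT and 53.9% in KO. At E12.5 the WT libraries of Lefty1 lay above the KO libraries. That log2 difference, -0.53, was near the all-gene median of -0.57 and did not pass (edgeR adjusted p = 0.23). Intervals over Lefty1 also reached Tmem63a in all 12 lists. Fst, which encodes the activin-binding protein Follistatin, had 73.1, 209 and 170 in E12.5 WT, 74.7, 56.3 and 109 in E12.5 KO, 228, 273 and 260.0 in E15.5 WT, and 276, 240 and 245 in E15.5 KO. The 6 E15.5 libraries were above all 6 E12.5 libraries. Among all genes tested, 370 of 2623 were higher at E15.5 in WT and 1384 of 3002 in KO. Chrd, Grem1 and Lefty2, the other antagonist genes marked throughout, ranged from 69.8 to 139, from 124 to 273 and from 24.2 to 135, and intervals over Chrd also covered its neighbour Thpo in all 12 lists. Nog, the BMP antagonist gene, had an interval in 9 lists, with 31.3 and 21.1 in E12.5 WT libraries 2 and 3, 28.2 and 13.9 in E12.5 KO libraries 1 and 3, 38.2 and 62.4 in E15.5 WT libraries 2 and 3, and 58.2, 32.5 and 12.8 in E15.5 KO. Bmper, a secreted BMP-binding regulator gene, had 17.7, 23.1 and 18.9 in E12.5 WT, a single value of 7.63 in E12.5 KO library 2, 18.1 and 22.5 in E15.5 WT libraries 2 and 3, and 24.7 and 16.5 in E15.5 KO libraries 1 and 3. Bmper was thus called in all E12.5 WT lists and in 1 of 3 E12.5 KO lists.

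Of the 9 receptor genes, 3 (Tgfbr2, Tgfbr3 and Acvrl1) were marked in every library, 4 in some and 2, Bmpr2 and Acvr1, in none. Acvrl1, the endothelial type I receptor ALK1, had 337, 440 and 337 in E12.5 WT, 143, 202 and 257 in E12.5 KO, 187, 175 and 215 in E15.5 WT, and 183, 182 and 195 in E15.5 KO. Its E12.5 WT libraries were above the other 9. Acvr1c, the Nodal-responsive receptor ALK7, had an interval in 10 lists, with 17.7, 40.9 and 42.7 in E12.5 WT, 36.7, 23.9 and 28.8 in E12.5 KO, and only library 2 at E15.5 in WT, with 22.1; its E15.5 KO values were 20.4, 27.7 and 12.03. Tgfbr1, the TGF-beta type I receptor gene, had 24.4, 14.1 and 18.4 in E12.5 WT, a single value of 7.48 in E12.5 KO library 3, and 26.0 in E15.5 WT library 3, with no interval elsewhere. Bmpr1b, a BMP type I receptor gene, had 20.1 and 19.5 in E12.5 WT libraries 2 and 3, 8.59 and 15.0 in E12.5 KO libraries 2 and 3, and 16.0 and 9.78 in E15.5 KO libraries 1 and 3. Bmpr1a, its close relative, had 22.3 in E12.5 WT library 2 and 36.7 in E12.5 KO library 1. Of the inhibitory Smads, Smad6 (chr9:63953076-64022085) had 1416, 1475 and 1245 in E12.5 WT, 872, 1120 and 1218 in E12.5 KO, 1356, 1157 and 1151 in E15.5 WT, and 1186, 1511 and 1283 in E15.5 KO. Smad7 had 1 interval, with 8 reads, in E12.5 KO library 2.

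Among those of the 35 genes tested by counts, the largest log2 difference between genotypes was at Tgfbr3, at E12.5. Tgfbr3 encodes betaglycan, the coreceptor that presents TGF-beta2 and inhibin. Tgfbr3 (chr5:107106567-107289629) had the most covered bases of the 35 genes, 62792 bp on average. Its normalised counts were 720, 2034.5 and 1368 in E12.5 WT, 114, 141 and 182 in E12.5 KO, 2138, 2443 and 2581 in E15.5 WT, and 1984, 2375 and 1462 in E15.5 KO. The 3 E12.5 KO libraries were thus below the other 9. Covered length showed the same gap: 40.8, 99.1 and 68.7 kb in E12.5 WT, 15.8, 11.2 and 13.2 kb in E12.5 KO, 59.6, 88.1 and 92.7 kb in E15.5 WT, and 93.9, 100.3 and 69.9 kb in E15.5 KO. The depth was 0.117 in E12.5 WT library 1, at 40.8 kb, and 0.212 to 0.272 in the E12.5 KO libraries.

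The marked DNA of Tgfbr3 fell into 3 main blocks. A block at chr5:107137001-107182600, inside the gene body, held intervals in 3 of 3 E12.5 WT lists, 0 of 3 E12.5 KO lists and all 6 E15.5 lists. A second block, at chr5:107227801-107278600 and also inside the gene body, held intervals in every list, with normalised counts of 505 to 1332 in E12.5 WT, 71.0 to 123 in E12.5 KO, 1446 to 1666 in E15.5 WT and 1013 to 1520 in E15.5 KO. The third, at chr5:107279401-107293800 over the upper end of the gene, held 115 to 262 in E12.5 WT, 42.9 to 58.8 in E12.5 KO, 299 to 322 in E15.5 WT and 173 to 324 in E15.5 KO. In all 3 blocks the E12.5 KO values were below those of the other groups. Exons and introns within these blocks were not analysed here.

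**Figure D2:**
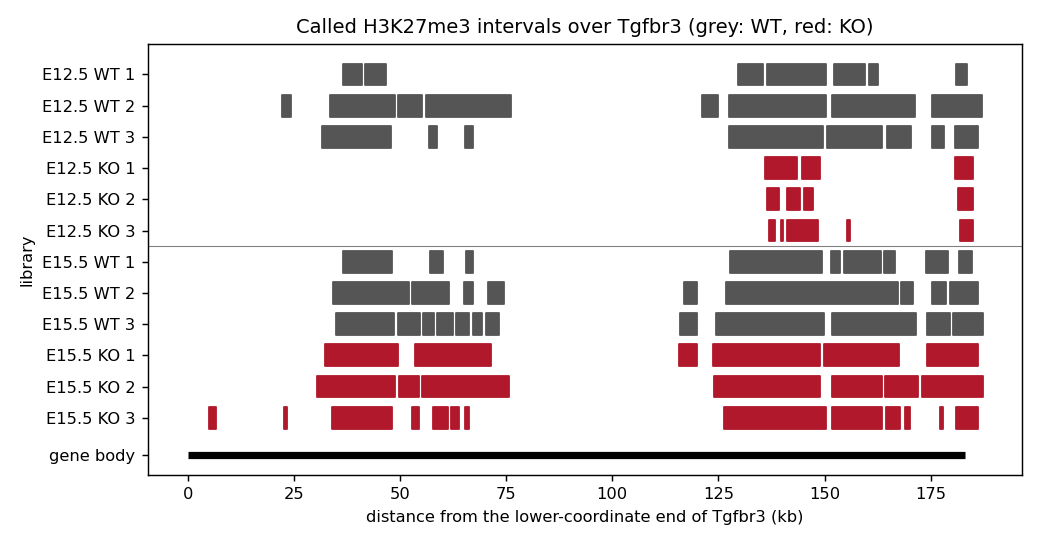
Called intervals over the Tgfbr3 window in each library (rows, grey for WT and red for KO), by distance in kb from the end of the gene with the lower coordinate, with the gene body as a black bar. The left block is empty in the 3 E12.5 KO rows and filled in the 3 E12.5 WT and 6 E15.5 rows, and the long block to its right covers 7.8 to 11.6 kb in the E12.5 KO rows and 29 to 46 kb in the E12.5 WT rows.

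The first comparison asked which genes changed in the mark when Ezh2 was deleted, at E12.5. Of the 24 pathway genes with an interval in all 6 libraries, 2 fell and 0 rose in edgeR's quasi-likelihood test with Benjamini-Hochberg adjustment at 0.05, against 127 of 3139 genes lower (4.05%) and 0 higher (0%). Tgfbr3 fell by 3.24 on the log2 scale (SE 0.40, adjusted p = 3.09e-04), from 1374 ± 657 to 146 ± 34.1 normalised counts (SD, n = 3 each), the 23rd lowest value of 3139. Tgfbr2, the TGF-beta type II receptor gene (chr9:116087695-116175363), had 88.6, 116 and 111 in WT and 30.6, 31.5 and 50.2 in KO. It fell by 1.50 (SE 0.40, edgeR adjusted p = 0.0436), and the groups did not overlap. The other 22 genes had negative log2 values that did not pass, from -1.08 for Gdf10 to -0.25 for Tgfb3, and the median of the 24 was -0.50. That median is near the -0.57 of all 3139 genes, of which 91.6% were negative, so a negative sign says little about a single gene. Counts on chromosomes other than autosomes, which are part of the depth, took 5.26% to 7.57% of the interval counts in E12.5 KO and 0.644% to 6.12% in E12.5 WT, and their part in the shift was not tested. Fst, whose values overlapped between WT and KO, had -0.94 (edgeR adjusted p = 0.171).

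Scaling bears on these calls. With TMM factors, which centre the bulk of the marked genes, the median of all genes was -0.05, and 38 genes were lower (1.21%) and 9 higher (0.287%). Tgfbr3 fell by 2.67 with TMM (edgeR adjusted p = 0.009), whereas Tgfbr2, at -0.98, had an adjusted p of 0.059 by edgeR. Under TMM 11 of the 24 pathway genes were negative and 13 positive. DESeq2 called 2 of the 24, Tgfbr3 and Tgfbr2, both lower, and of all genes 98 lower (3.12%) and 73 higher (2.33%). Tgfbr3 missed the threshold in 1 of 16 alternatives (edgeR adjusted p = 0.052, genes with an interval in at least 3 of the 6 libraries). Under that filter Tgfbr2 had an adjusted p of 0.289 by edgeR, and it also lost its call without E12.5 WT library 2 or 3 (edgeR adjusted p = 0.110 and 0.142) and without E12.5 KO library 1 or 2 (0.267 and 0.169). Without E12.5 KO library 3, 904 genes and 5 pathway genes were called, and without E12.5 WT library 1, 477 genes and 4 pathway genes.

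At E15.5 the same comparison gave no pathway gene past the threshold. Of 20 genes tested, 0 were lower and 0 higher by edgeR, against 2 of 2694 genes lower (0.0742%) and 11 higher (0.408%). None of the 20 had an unadjusted p under 0.05, and 1 had with TMM factors and 1 with DESeq2, again with 0 past the threshold. Of all genes, 303 (11.2%) had such a p by the main test, and DESeq2 called 24 lower (0.891%) and 48 higher (1.78%). With TMM factors 2 of all genes were lower (0.0742%) and 15 higher (0.557%). The median log2 value was 0.16 over the 20 genes and -0.01 over all genes. Tgfbr3 had -0.30 (SE 0.18, edgeR adjusted p = 0.565), and Tgfbr2, with 24.2, 22.1 and 19.1 in WT and 33.5, 30.1 and 30.1 in KO, had 0.53 (SE 0.24, edgeR adjusted p = 0.472). The Tgfbr2 libraries did not overlap, with KO above WT, but they rest on 7 to 40 reads. Fst had -0.0052 (SE 0.13, edgeR adjusted p = 0.991).

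**Figure D3:**
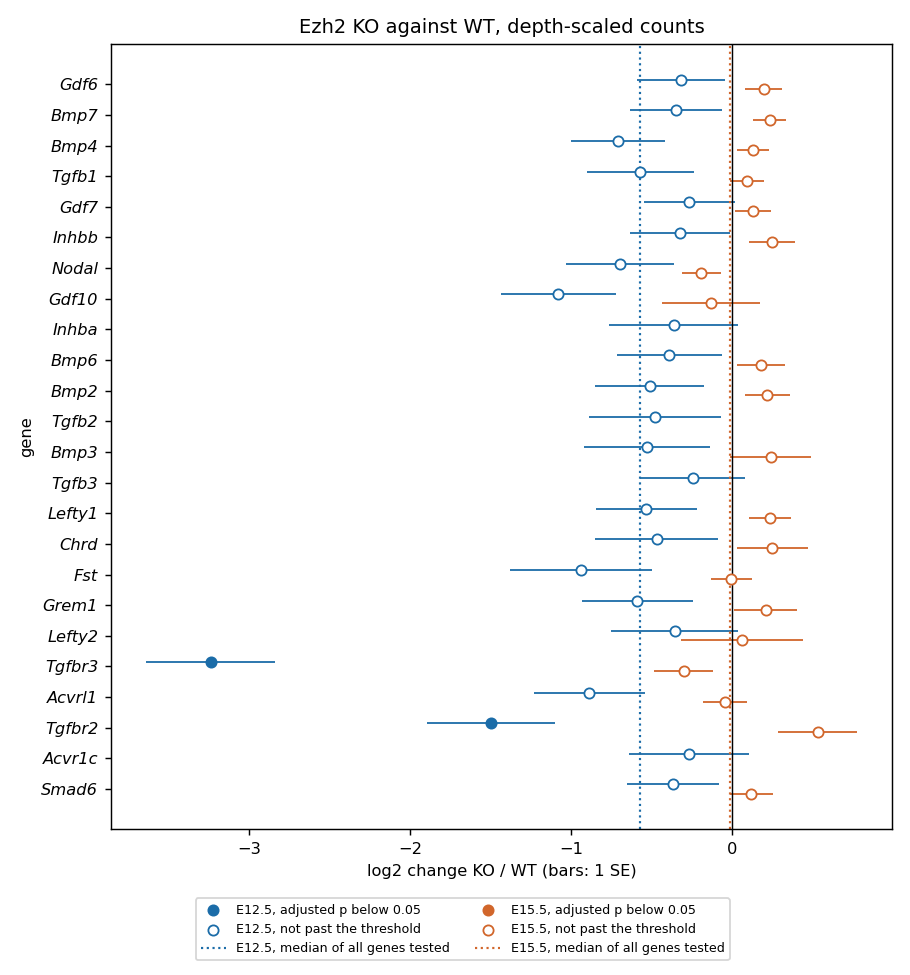
Log2 change of KO against WT (x axis, points with bars of 1 SE) for each pathway gene tested (y axis) at E12.5 (blue) and E15.5 (orange), filled where the edgeR adjusted p was below 0.05, with dotted lines at the medians of all genes tested. Tgfbr3 (-3.24) and Tgfbr2 (-1.50) stand left of the E12.5 median of -0.57, and every E15.5 point is open.

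Over both stages with stage as a term, 0 of 20 pathway genes passed by edgeR, against 23 of 2491 genes lower (0.923%) and 1 higher (0.0401%). Of the 20, 4 had an unadjusted p under 0.05, as did 525 of the 2491 (21.1%), and Tgfbr3 had -1.76 (SE 0.50, edgeR adjusted p = 0.108). DESeq2 called 2 of the 20, Tgfbr3 at -1.45 and Inhbb at 0.26, and of all genes 114 lower (4.58%) and 105 higher (4.22%). With TMM factors the split over all genes was 49 lower (1.97%) and 53 higher (2.13%), with 0 pathway genes called.

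A test of the difference between the 2 stages in KO against WT called 2 of 20 pathway genes, both higher, against 14 of 2491 genes higher (0.562%) and 0 lower (0%) by edgeR. Tgfbr3 had 2.94 (SE 0.45, edgeR adjusted p = 0.0212) and Tgfbr2 had 2.03 (SE 0.40, edgeR adjusted p = 0.0379), where a positive value means that KO stood higher relative to WT at E15.5 than at E12.5. All 20 genes were positive, with a median of 0.73, and 2268 of the 2491 genes were positive, with a median of 0.61. With TMM factors the median of all genes was 0.02, and 6 genes were higher (0.241%). Tgfbr3 passed with TMM, at 2.29 (edgeR adjusted p = 0.008), and Tgfbr2, at 1.47, did not (edgeR adjusted p = 0.056). The call of Tgfbr3 was lost when E12.5 WT library 3, E12.5 KO library 1 or 2, E15.5 WT library 1 or 2, or E15.5 KO library 1 was left out, with edgeR adjusted p from 0.0615 to 0.101 and values from 2.79 to 2.96. For Tgfbr2 the call was lost without any 1 library other than E12.5 WT library 1 or E12.5 KO library 3. Without E12.5 KO library 3, 959 genes and 14 of the pathway genes were called, and without E12.5 WT library 1, 126 genes and 2 pathway genes.

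Covered bases, which can also be compared where a list has no interval, gave no call among pathway genes. A gene was tested if it had an interval in at least 3 of the libraries compared, and covered bases depend on depth. In limma on log2(covered bases + 200), 0 of 29 passed at E12.5 against 0 of 5231 genes (0%), 0 of 26 at E15.5 against 2 of 4150 lower (0.0482%) and 59 higher (1.42%), and 0 of 29 over both stages against 0 of 5793 (0%). At an unadjusted p under 0.05 there were 4, 1 and 2 pathway genes, and 459 (8.78%), 283 (6.82%) and 247 (4.26%) of all genes, so these counts give no result about the pathway. The 4 at E12.5 were Tgfbr1, at -3.10 (limma adjusted p = 0.288), Bmper, at -2.95 (0.417), Tgfbr3, at -2.28 (0.144), and Bmp6, at -0.39 (0.567), chosen here after their values were seen. Tgfbr1 covered 1.8, 2.68 and 2.4 kb in the 3 E12.5 WT libraries and 0.4 kb in 1 of 3 KO libraries. Bmper too had an interval in 3 of 3 WT and 1 of 3 KO lists. Both genes thus entered this test through WT, where they are high, so their values are given as description only.

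**Figure D4:**
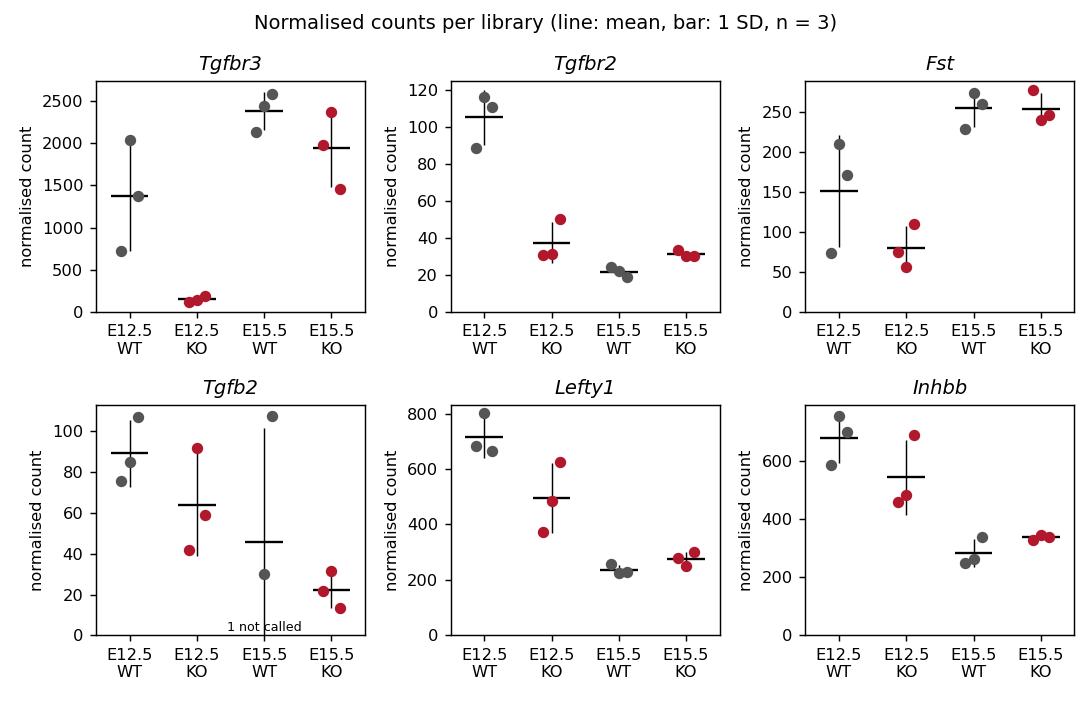
Normalised counts (y axis, linear from 0) of 6 genes in the 3 libraries of each group (points, grey for WT and red for KO), with the mean as a line and 1 SD as a bar. Tgfbr3 and Tgfbr2 are lower in KO than in WT at E12.5, Fst and Tgfbr3 are high in both E15.5 groups, and Lefty1 and Inhbb are lower in both E15.5 groups than in E12.5 WT.

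The stages were compared within each genotype. In WT, 12 of 20 pathway genes fell from E12.5 to E15.5 and 0 rose by edgeR, against 940 of 2623 genes lower (35.8%) and 45 higher (1.72%), and the median was -0.80 for the 20 and -0.58 for all genes. These WT libraries also differed in depth, from 0.117 to 0.698 at E12.5 and from 0.0751 to 0.150 at E15.5, and the part of depth in the result was not tested. With TMM factors the median of all genes was -0.10, with 449 lower (17.1%) and 271 higher (10.3%), and 7 pathway genes fell and 2 rose. The 7 were all among the 12: Tgfbr2 (-2.30 by depth scaling), Lefty1 (-1.60), Bmp3 (-1.32), Inhbb (-1.26), Bmp2 (-1.08), Acvrl1 (-0.95) and Bmp4 (-0.88), with edgeR adjusted p from 0.00287 to 0.0155. Lefty1 and Tgfbr2 kept their call in every alternative in which they were tested. The other 5 of the 12, Gdf10 (-1.22), Bmp6 (-0.84), Gdf6 (-0.76), Tgfb1 (-0.58) and Gdf7 (-0.42), passed with depth scaling (edgeR adjusted p from 0.00807 to 0.0387) and not with TMM or DESeq2, and in 2 of them the sign changed, Gdf7 having 0.05 with TMM and 0.15 with DESeq2, and Tgfb1 having 0.0014 with DESeq2. Bmp4 and Acvrl1 also missed the threshold with DESeq2 (adjusted p = 0.0751 and 0.0945), which called 382 of all genes lower (14.6%) and 373 higher (14.2%). Of 16 alternatives, Bmp4 passed in 11, with log2 values from -1.03 to -0.19 and edgeR adjusted p up to 0.361. Acvrl1 passed in 12, Bmp2 in 13, Bmp3 in 14 and Inhbb in 15. Fst and Tgfbr3 rose with TMM, by 1.22 (edgeR adjusted p = 0.021) and 1.32 (0.0151), and had 0.72 (0.149) and 0.79 (0.0994) by depth. The count over all genes, 985 in both directions, was 85 without E15.5 WT library 2, 241 without E12.5 WT library 3 and 201 without E15.5 WT library 1, and the 12 pathway genes became 2, 4 and 5.

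In the KO, 1 of 24 pathway genes fell and 2 rose from E12.5 to E15.5 by edgeR, against 165 of 3002 genes lower (5.5%) and 124 higher (4.13%), and medians were -0.18 and -0.05. Tgfbr3 rose by 3.73 (SE 0.33, edgeR adjusted p = 4.83e-12), from 146 ± 34.1 to 1940 ± 458 normalised counts (SD, n = 3 each), the 7th highest of 3002. Fst rose by 1.66 (SE 0.34, edgeR adjusted p = 5.09e-04), and all 3 E15.5 libraries lay above all 3 E12.5 libraries for both genes. These 2 calls held in all 16 alternatives. Tgfb2 fell by 1.55 (SE 0.44, edgeR adjusted p = 0.0158), and its call was lost without E12.5 KO library 1, 2 or 3 (adjusted p = 0.0519, 0.110 and 0.058) or E15.5 KO library 3 (0.153), and when an interval was needed in at least 3 of the 6 libraries (0.166). TMM factors gave 236 genes lower (7.86%) and 269 higher (8.96%), and they added Lefty1 and Inhbb to the pathway genes that fell. This comparison shares its E12.5 KO libraries with the E12.5 comparison of genotypes, so the Tgfbr3 values of the 2 are not independent.

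**Figure D5:**
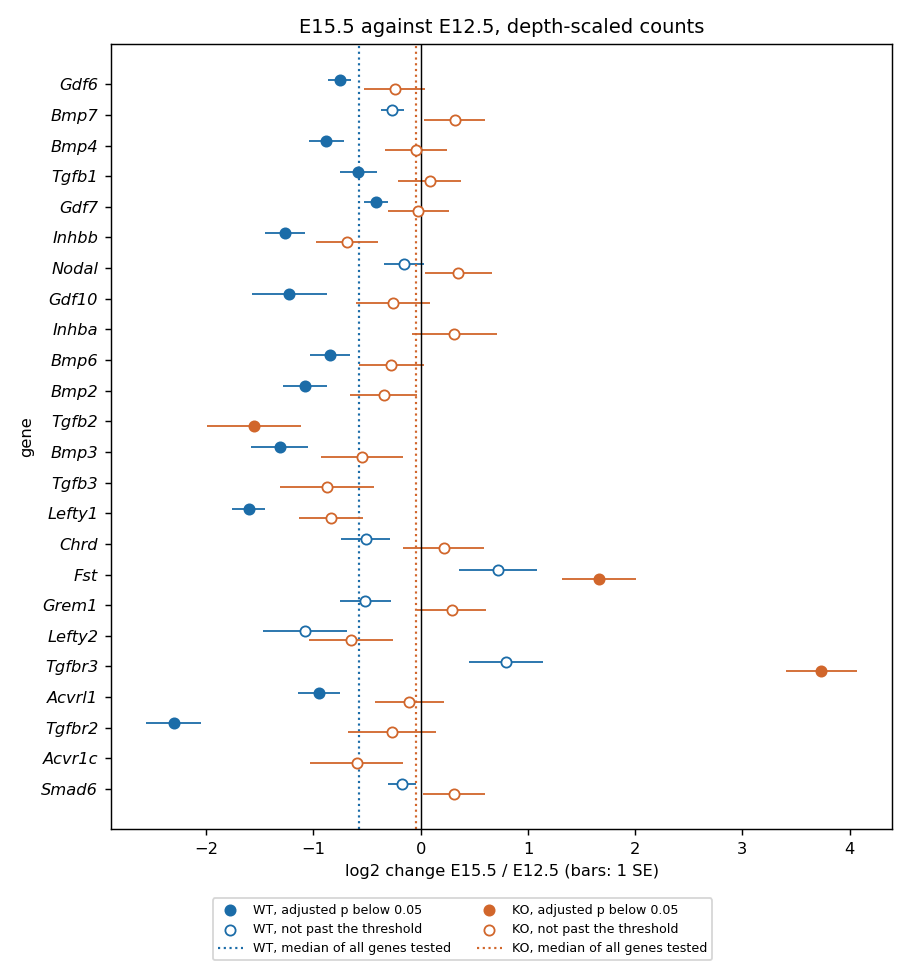
Log2 change of E15.5 against E12.5 (x axis, points with bars of 1 SE) for each pathway gene tested (y axis) in WT (blue) and KO (orange), filled where the edgeR adjusted p was below 0.05, with dotted lines at the medians of all genes tested. With this scaling 18 of 20 WT points are left of 0 (11 with DESeq2), whereas in KO the filled points are Tgfbr3 (3.73), Fst (1.66) and Tgfb2 (-1.55).

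A wider list of 57 other pathway genes, 55 of them autosomal, had 21 to 34 genes with an interval per library (38.2% to 61.8%). The share was 15.9% to 31.5% for all genes and 60% to 85.7% for the 35 genes. At E12.5, 1 of 25 tested, Inha, the inhibin alpha gene, fell in KO (-2.52, edgeR adjusted p = 0.0347), against 4.05% of all genes lower. Its WT values were 37.7, 205 and 30.3, and without E12.5 WT library 2, the one at 205, the value was -1.02 (edgeR adjusted p = 0.265). Its adjusted p was 0.244 with TMM, 0.0843 with DESeq2 and 0.304 without E12.5 KO library 1. DESeq2 called none of the 25 lower and 1 higher, Msx3 at 0.57. At E15.5 and over both stages 0 of 20 passed by edgeR, with 2 and 4 at an unadjusted p under 0.05, against 11.2% and 21.1% of all genes. Over both stages TMM called 1, Msx3 at 0.39, against 1.97% of all genes lower and 2.13% higher, and DESeq2 called 3, Msx3, Id3 and Ltbp3, all higher, against 4.58% lower and 4.22% higher. At E15.5 both called 0.

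Between the stages in WT, 7 of 20 fell and 1 rose, against the same 35.8% and 1.72% of all genes. Ltbp3 (-1.94) and Ltbp4 (-1.17), which encode proteins that hold latent TGF-beta in the matrix, fell in all 15 alternatives. Bmp8a (-1.17), Cfc1 (-1.01), a Nodal coreceptor gene, Fstl3 (-1.33), Tgif1 (-0.78), a Smad corepressor gene, and Msx3 (-0.77), a dorsal neural tube homeobox gene, also fell, and of these 5 TMM kept Bmp8a and Cfc1. Id3, a BMP target that encodes an inhibitor of basic helix-loop-helix factors, rose by 0.74 (edgeR adjusted p = 0.0225). Without E15.5 WT library 1 or 2, of these 8 only Ltbp3 and Ltbp4 passed, the others having edgeR adjusted p from 0.0513 to 0.120. In KO 2 of 25 fell and 2 rose, against 5.5% and 4.13% of all genes: Id3 rose by 1.13 and Id2 by 1.63 (edgeR adjusted p = 0.0073 and 0.0051), while Ltbp3 (-1.28, 0.0033) and Dand5, a Nodal and BMP antagonist gene (-2.46, 0.0464), fell. Dand5 had an adjusted p of 0.363 with TMM, and lost its call without E12.5 KO library 1 (0.500) or 3 (0.264). Its normalised counts were 10605 ± 9332 in E12.5 KO and 1924 ± 3260 in E15.5 KO (SD, n = 3 each). The log2 value of Dand5 ran from -7.99 to -1.69 over 15 alternatives, so its size is not known with any precision. Id2 lost its call without E12.5 KO library 1 (0.0533) or E15.5 KO library 2 (0.0769), and Id3 without the latter (0.0657). Id3 values were 301, 443.5 and 351 in E12.5 WT, 223, 375 and 371 in E12.5 KO, 602, 647 and 582 in E15.5 WT, and 667, 815 and 641 in E15.5 KO. All 6 E15.5 libraries were above all 6 E12.5 libraries for Id3, as they were for Fst.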

How the data were processed

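H3K27me3 CUT&Tag interval lists of 12 libraries were used, with 1 list per library and none pooled. Per the submitters' processing notes, cutadapt, Bowtie2, SAMtools, Picard, deepTools and SICER were used on GRCm38 (mm10), and versions are not given in the sources used here. Per interval the authors deposited a whole-number read count and a score with no stated scale. For intervals of 200 bp the deposited score equalled the negative natural log of a Poisson probability of the count, to within 0.0036, and its mean was taken as depth, on the assumption that it follows the number of reads. Intervals are cut off by the caller's threshold, so counts outside them are unknown.

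Counts were summed per gene window (RefSeq GRCm38.p6, 20661 autosomal protein-coding genes), whole intervals included. The main test was edgeR 4.0.16, quasi-likelihood, with depth as library size, over genes with an interval in every library compared. Covered bases were tested with limma 3.58.1. Alternatives were TMM factors, DESeq2 1.42.0, other filters, windows, overlaps and lists, merged regions, a replicate block and leaving out each library. SE is the log2 value over the square root of its F. Tested on simulated data, the models recovered large known changes and missed many of the small ones at E12.5. The simulated counts had the spread that edgeR itself had fitted. Values for limma were drawn from a normal distribution, for the comparison over both stages only. Neither simulation included the caller's threshold, so they do not show how well the models do on these lists. Members and lists were chosen with earlier results of these data known. Values in every library are given for genes called in a test, genes with an interval in some but not all libraries and the 6 with the most covered bases. Up to 11 other pathway genes are named, those called, 1 more than the rule's 10. Of the promoters of called genes, those printed were chosen after their values were seen. Interval counts are not independent molecules where duplicates remained, so precision is read from replicates.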

Additional observations from a re-analysis of the deposited data

Results flagged for a closer look

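Tgfbr3 and Tgfbr2 stood out because the difference between KO and WT itself differed between the stages, by the interaction test in edgeR. For Tgfbr3 the log2 value was 2.94 (SE 0.45, edgeR adjusted p = 0.0212), from -3.24 at E12.5 to -0.30 at E15.5, and the 3 E12.5 KO libraries were below the other 9. Over 22 alternatives the value ran from 2.27 to 3.25, with adjusted p from 2.59e-13 to 0.101, and it passed in 15. For Tgfbr2 the value was 2.03 (SE 0.40, edgeR adjusted p = 0.0379), from -1.50 at E12.5 to 0.53 at E15.5. Over 20 alternatives it ran from 1.47 to 2.31, with adjusted p from 0.0149 to 0.133, and it passed in 7. The E15.5 WT libraries held 7, 11 and 11 reads at Tgfbr2, so its E15.5 value rests on few reads. All genes tested had a median of 0.61 in this test, so part of each value is shared with most marked genes. Relative to that median Tgfbr3 stood at 2.33 and Tgfbr2 at 1.43.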

How the results depend on the processing

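Under the alternatives other than leaving out a library, the number of pathway genes called for KO against WT at E12.5, 2 by the main test, was 1 with TMM factors and 0 when genes needed an interval in at least 3 of 6 libraries. Over both stages, where the main test called 0, DESeq2 called 2, and counts apportioned by overlap and merged regions called 1 each. For the stages in WT, 12 became 7 with apportioned counts. For the stages in KO, 3 became 5 with TMM factors and with DESeq2. For the difference between stages, 2 became 1 with TMM factors, with lists of equal length, with 1000 bp of overlap and with a replicate block, and 0 with an interval in at least 6 of 12 libraries. By covered bases at E12.5, 0 became 1 with lists of equal length. The mean number of genes with an interval became 25.3 in E12.5 WT with lists of equal length, 24.7 in E12.5 KO and 24.3 in E15.5 KO with the same lists, and 26 in E12.5 KO with no margin or with 1000 bp of overlap. Leaving out 1 library at a time gave 1 to 5 genes at E12.5, 0 to 0 at E15.5, 0 to 0 over both stages, 2 to 13 for WT stages, 2 to 3 for KO stages and 0 to 14 for the difference between stages. By covered bases it gave 0 to 2 at E12.5, 0 to 0 at E15.5 and 0 to 0 over both stages. Values that changed sign were Tgfb2 at E12.5 (0.065 with TMM, 0.13 with DESeq2), Fst at E15.5 (0.012 with TMM, 0.00458 with apportioned counts, -0.072 to 0.050 without 1 library), Gdf7 between the WT stages (0.052 with TMM, 0.15 with DESeq2, 0.18 with apportioned counts), Tgfb1 there with DESeq2 (0.0014) and Tgfbr2 between the KO stages without 1 library (-0.39 to 0.0023, the latter without E12.5 KO library 3), and in these comparisons only Gdf7 and Tgfb1 had passed by the main test. The cause was not tested.

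Counts over all genes moved more: 127 at E12.5 became 10 to 305, 13 at E15.5 became 0 to 72, 24 over both stages became 0 to 219, 985 for WT stages became 509 to 1067, 289 for KO stages became 138 to 563, and 14 for the difference between stages became 2 to 43. Leaving out 1 library, they ran from 11 to 904, 0 to 13, 0 to 40, 85 to 1445, 174 to 267 and 0 to 959 in the same order. By covered bases, 0 at E12.5 became 0 to 136 and 61 at E15.5 became 0 to 52, or 0 to 35 and 0 to 78 without 1 library. Whether the replicate numbers pair the libraries was not settled. Correlations of same-numbered WT and KO deviations were 0.227, 0.020 and 0.168 at E12.5 and -0.223, -0.202 and -0.352 at E15.5. Differently numbered pairs ran from -0.232 to 0.173 at E12.5 and from -0.0020 to 0.222 at E15.5. Between the stages, same-numbered WT libraries had 0.390, -0.006 and 0.302. Deviations from a mean of 3 libraries are tied to each other, so these correlations cannot decide it. With a replicate block all-gene counts were 305 at E12.5, 0 at E15.5 and 4 over both stages.

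Depth limits what an uncalled interval says: the 3 E15.5 WT libraries and E12.5 WT library 1 were the shallowest, and genes such as Tgfbr2, Tgfb3 and Bmper rest on few reads there. Sites below the caller's threshold were not measured.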
